A study of Ovis aries with 16 samples.

Results

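FHL1, CRYAB, RCAN1 and CKB are 4 genes whose transcripts are known to respond to load or to signals that accompany it. The 4 genes were chosen with earlier results of these data known. They were taken as all non-control probes of an Agilent sheep array that the scanner files name, by gene name, accession or description, for one of these genes. Each gene had 1 probe with 1 spot per array, so 4 of the 15008 non-control probes, and 4 of the 859 genes that could be named, are described. The RCAN1 probe carries the older name LOC443255 (DSCR1-like protein) in the files and was paired with RCAN1 through the RefSeq gene table of the ARS-UI_Ramb_v3.0 assembly.

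The tissue was left ventricle of fetal sheep from 8 twin pregnancies, with 1 array per fetus and 16 arrays in all. In 4 twin sets (sets 1 to 4) a fetus received losartan, a blocker of the AT1 angiotensin receptor, and was compared with its twin, which had no infusion. In the other 4 sets (sets 5 to 8) a fetus received angiotensin II, the agonist of that receptor, and was likewise compared with a twin without infusion. Catheters were placed in the femoral artery and vein at 125 to 126 days of gestation, where term is 145 days, and hearts were taken after 5 days of treatment. The labels call the infusions daily in one place and continuous in another, and the tissue the free wall or the free wall with septum. Whether untreated twins carried catheters, and the sex and weight of the fetuses, are not given in the sources used here. Blood pressure was not among the measurements used here, so load itself had no value in these data. The cardiomyocyte markers TPM1 (tropomyosin) and MB (myoglobin) were well above background on 16 of 16 arrays. The other 12 of 14 listed cardiomyocyte markers had no probe under their own symbols. Of these, MYH7 was represented by probes under the name OMYHCS, which are given below.

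FHL1 is a protein of LIM domains that binds titin in the sarcomere's I-band and is studied in mice as part of a stretch sensor in hypertrophy. CRYAB, alpha B-crystallin, is a small heat shock protein that protects desmin and titin from aggregation and is among the most abundant chaperones of heart muscle. RCAN1 binds and inhibits calcineurin, the calcium-dependent phosphatase that activates NFAT, and one of its isoforms is itself an NFAT target. CKB is the brain-type creatine kinase, which transfers phosphate between ATP and creatine and is more prominent in the fetal than in the adult heart. Angiotensin II acting through AT1 raises arterial pressure and is known as a growth signal for cardiac muscle.

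The probes of FHL1 and CKB, whose twin ratios did not overlap between the treatments, and that of CRYAB, whose ratios overlapped, are shown to identify what was measured. The sequences are those in the scanner files, written 5′ to 3′.
FHL1: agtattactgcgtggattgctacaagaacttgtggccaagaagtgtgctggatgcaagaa
CKB: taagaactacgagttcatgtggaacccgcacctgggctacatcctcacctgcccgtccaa
CRYAB: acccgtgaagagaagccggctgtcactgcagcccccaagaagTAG
The FHL1 and CKB lines are whole probes of 60 bases. The CRYAB line is the first 45 bases of its probe, and the capitals mark a stop triplet that a search of the first reading frame found at base 43. The RCAN1 probe starts at base 2133 of its target sequence, those of FHL1, CKB and CRYAB at bases 664, 528 and 500. RCAN1 isoforms are known to differ in their first exon; the place of this probe in the sheep transcripts was not checked here, so its level is not assigned to an isoform. GC content was 45.0% for FHL1 and RCAN1 and 55.0% for CKB and CRYAB, and 0 other probes on the array shared a run of 15 bases with any of them. The files name no genome build, so no coordinates are given.

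All 4 probes were well above background on 16 of 16 arrays and none was saturated. Levels are given as log2 of the processed fluorescence minus the 75th percentile of the array, so a level of 0 is the signal of the array's 75th percentile; levels of different probes are not set against each other. A twin ratio is the level of the treated fetus minus that of its untreated twin. Changes were fitted in limma on all 16 arrays with the twin set as a block, and p-values were adjusted by Benjamini-Hochberg over 8970 tested probes, with 0.05 as the threshold. The 95% intervals are those of each single estimate, not adjusted over probes.

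The arrays lay on 2 slides of 8. Their 75th percentiles were 1099 to 1670 fluorescence units, 57.3% to 64.1% of probes per array were well above background, and replicate spots had a median coefficient of variation of 7.8% to 11.6%. In a principal component analysis 3 arrays of slide 2 stood apart, with scores of 30.1 to 39.8 on the first component against -19.0 to -0.4 for the other 13: the angiotensin II fetuses of sets 7 and 8 and the untreated twin of losartan set 2. The bright-corner control spots of these 3 arrays were also brighter, with medians of 17.3 to 17.8 (log2 processed signal) against 14.5 to 15.2 on the other 13. Whether this reached the twin ratios was not tested. Results are therefore also given without sets 2, 7 and 8. Twins shared a slide in sets 2, 3, 6 and 8. In sets 1 and 4 the losartan fetus lay on slide 2 and its twin on slide 1, so slide differed in the same direction in both. The angiotensin II fetus lay on slide 1 in set 5 and on slide 2 in set 7, with its twin on the other slide.

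None of the 4 genes passed the threshold with losartan, with angiotensin II or in the difference between the 2 effects. FHL1 was lower in losartan fetuses than in their twins in 4 of 4 sets and higher in angiotensin II fetuses in 4 of 4 sets. CKB ran the other way, being lower in angiotensin II fetuses in 4 of 4 sets and higher in losartan fetuses in 3 of 4. CRYAB and RCAN1 were each above the untreated twin in 2 sets and below it in 2 sets, with either treatment. Over all tested probes, 1.22% passed with losartan (109 of 8970, of which 89 fell), 0% with angiotensin II (938 had an unadjusted p under 0.05) and 1.65% in the difference (148 of 8970).

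FHL1, the LIM protein, had levels of -0.92, -1.17, -0.63 and -1.03 in the losartan fetuses of sets 1 to 4, against -0.77, -0.38, -0.20 and -0.95 in their untreated twins. The losartan fetus was the lower of each pair, but the groups overlapped, since the untreated twins of sets 1 and 4 lay within the losartan range. The twin ratios were -0.15, -0.79, -0.43 and -0.08 in sets 1 to 4. The fitted change was -0.36 (SE 0.13, 95% interval -0.65 to -0.07), a ratio of 0.779, with an unadjusted p of 0.0212 and an adjusted p of 0.297 in limma. Of all probes with a twin ratio in each set, 11.1% were lower in 4 of 4 losartan fetuses. The larger ratios were those of sets 2 and 3, whose twins shared a slide, and the untreated twin of set 2 was one of the arrays that stood apart.

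In angiotensin II fetuses FHL1 had levels of -0.52, -0.46, -0.42 and -0.61 in sets 5 to 8, against -0.78, -1.04, -0.91 and -1.26 in their untreated twins. These groups did not overlap, and the angiotensin II fetuses were the tightest of the 4 groups for this gene (SD 0.08, n = 4). The twin ratios were 0.26, 0.58, 0.49 and 0.65. The fitted change was 0.49 (SE 0.13, 95% interval 0.20 to 0.79), a ratio of 1.41, with an unadjusted p of 0.00394 and an adjusted p of 0.457 in limma, the 71st smallest p of the 8970 probes. Of all probes, 7.70% were higher in 4 of 4 angiotensin II fetuses, and 3.09% were, like FHL1, also lower in 4 of 4 losartan fetuses.

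Set side by side, the FHL1 means were -0.50 ± 0.08 with angiotensin II, -0.58 ± 0.34 in the untreated twins of losartan fetuses, -0.94 ± 0.23 with losartan and -0.996 ± 0.21 in the untreated twins of angiotensin II fetuses (SD, n = 4 each). Neighbours in this order overlapped, while the lowest angiotensin II fetus (-0.61) lay just above the highest losartan fetus (-0.63). The difference between the effects, angiotensin II minus losartan, was 0.85 (SE 0.19, 95% interval 0.44 to 1.27; adjusted p = 0.0571 in limma). All 4 angiotensin II ratios lay above all 4 losartan ratios, as they did for 6.06% of probes.

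Of that difference of 0.85, 0.43 lay between the treated groups, and 0.42 came from the untreated twins, which were lower in the angiotensin II sets than in the losartan sets. The estimate for the untreated twins, angiotensin II sets minus losartan sets, was -0.42 (SE 0.18, 95% interval -0.83 to -0.01; unadjusted p = 0.0455, adjusted p = 0.9998 in limma), where 0% of probes passed and 299 had an unadjusted p under 0.05. The untreated fetuses with the 2 highest FHL1 levels were those of losartan sets 2 and 3. Without sets 2, 7 and 8 the FHL1 estimates were -0.22 with losartan, 0.42 with angiotensin II and 0.64 for the difference (adjusted p = 0.246 in limma). Within slide 1, which held a single losartan array, the losartan estimate was 0.01 and the angiotensin II estimate 0.48. Within slide 2, with a single untreated twin of the losartan sets, they were -0.66 and 0.50. On slide 2 that twin and the angiotensin II fetuses were the arrays that stood apart, so treatment and that separation cannot be told apart there.

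**Figure D1:**
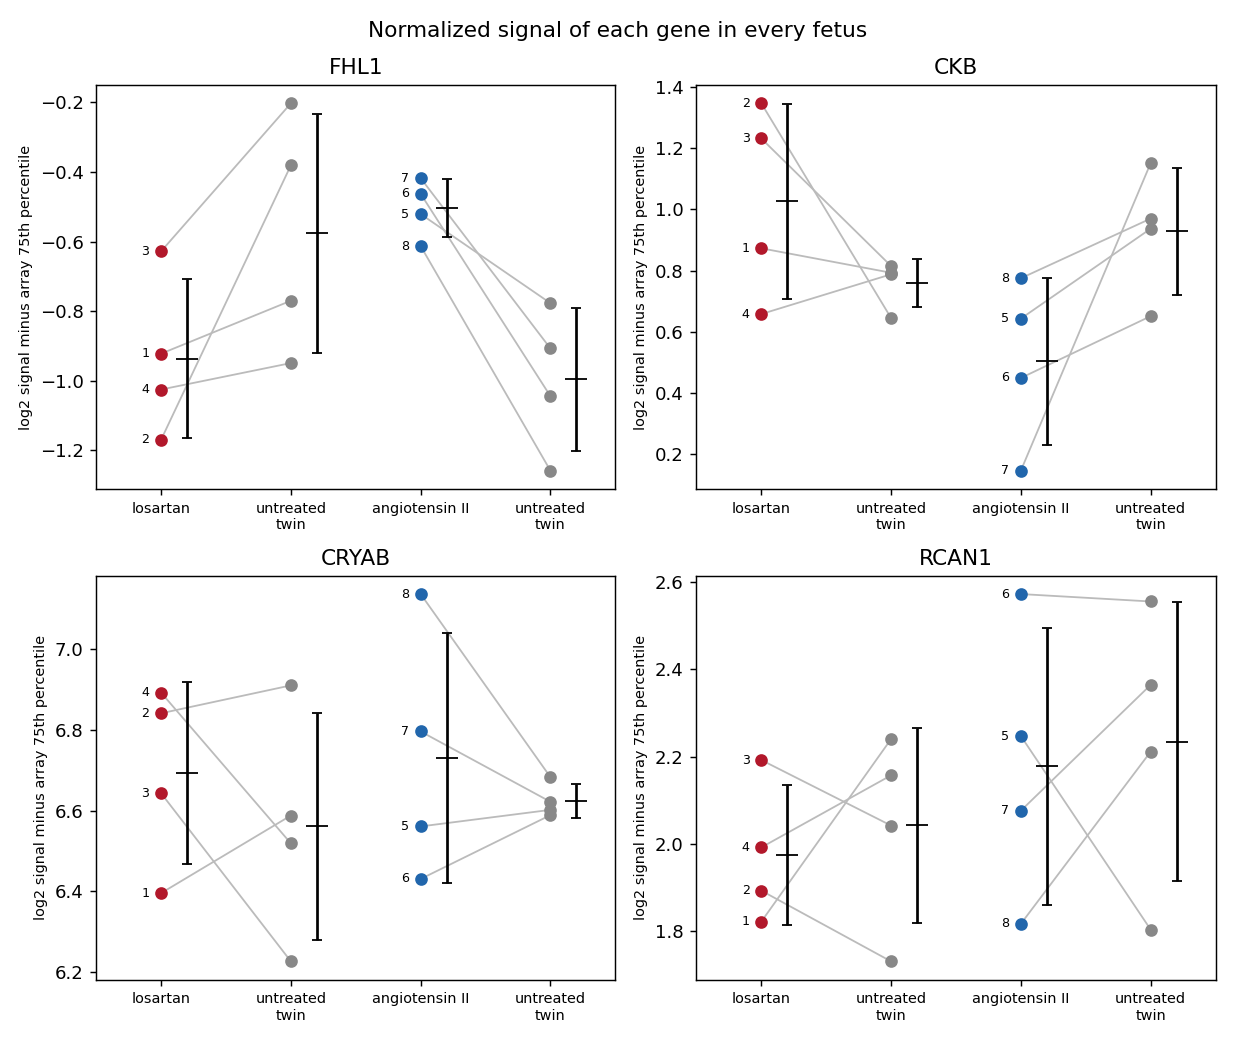
Level of each gene (log2 processed signal minus the array's 75th percentile) in the 16 fetuses; grey lines join twins, numbers give the twin set, and black marks are group means with SD (n = 4). For FHL1 the angiotensin II fetuses (-0.61 to -0.42) lie above their untreated twins (-1.26 to -0.78), and every losartan fetus lies below its twin.

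CKB, the creatine kinase, had levels of 0.87, 1.35, 1.23 and 0.66 in the losartan fetuses of sets 1 to 4, against 0.79, 0.65, 0.82 and 0.79 in their untreated twins. The losartan fetuses of sets 1, 2 and 3 were above all 4 untreated twins and that of set 4 was below its twin. The twin ratios were 0.08, 0.70, 0.42 and -0.13. The fitted change of 0.27 (SE 0.17, 95% interval -0.11 to 0.65; adjusted p = 0.571 in limma) did not pass.

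In angiotensin II fetuses CKB had levels of 0.64, 0.45, 0.15 and 0.78 in sets 5 to 8, against 0.94, 0.65, 1.15 and 0.97 in their untreated twins. Each angiotensin II fetus was below its twin, though the groups overlapped at the untreated twin of set 6. The twin ratios were -0.30, -0.20, -1.01 and -0.20, with set 7 far from the others. The fitted change was -0.42 (SE 0.17, 95% interval -0.81 to -0.04), a ratio of 0.745, with an unadjusted p of 0.0330 and an adjusted p of 0.465 in limma. Of all probes, 11.0% were lower in 4 of 4 angiotensin II fetuses.

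Ordered by mean, CKB was 1.03 ± 0.32 with losartan, 0.93 ± 0.21 in the untreated twins of angiotensin II fetuses, 0.76 ± 0.08 in those of losartan fetuses and 0.50 ± 0.27 with angiotensin II (SD, n = 4 each). Each group overlapped the next. The difference between the effects was -0.69 (SE 0.24, 95% interval -1.23 to -0.15; adjusted p = 0.165 in limma), and the 2 sets of ratios did not overlap, as for 6.30% of probes with angiotensin II below losartan. Of this difference -0.52 lay between the treated groups, and the untreated twins differed by 0.17 (SE 0.13; adjusted p = 0.9998 in limma). With sets 2, 7 and 8 left out, the CKB estimates were 0.12 with losartan, -0.25 with angiotensin II and -0.37 for the difference (adjusted p = 0.517 in limma). Within slides, the difference was -0.79 on slide 1 and -0.81 on slide 2. On slide 2 the arrays of sets 2, 7 and 8 that stood apart were all the angiotensin II arrays and the single untreated twin of losartan fetuses. The slide 2 value therefore cannot be told apart from that separation.

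CRYAB, the small heat shock protein, had levels of 6.40, 6.84, 6.64 and 6.89 in the losartan fetuses of sets 1 to 4, against 6.59, 6.91, 6.23 and 6.52 in their untreated twins. In angiotensin II fetuses of sets 5 to 8 the levels were 6.56, 6.43, 6.80 and 7.14, against 6.60, 6.59, 6.62 and 6.68 in their untreated twins. Treated fetuses lay on both sides of their twins in each arm, and the untreated twins of the angiotensin II sets spanned a narrow range (SD 0.04, n = 4). The fitted changes were 0.13 with losartan (SE 0.14, 95% interval -0.18 to 0.45; adjusted p = 0.744 in limma) and 0.11 with angiotensin II (SE 0.14, 95% interval -0.21 to 0.42; adjusted p = 0.743 in limma). On the ratio scale these intervals ran over 0.881 to 1.36 and 0.866 to 1.34. The difference between the effects was -0.02, with an interval of -0.47 to 0.42, and its sign was opposite under 8 of 23 alternative settings.

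The 4 CRYAB means lay between 6.56 ± 0.28 in the untreated twins of losartan fetuses and 6.73 ± 0.31 with angiotensin II (SD, n = 4 each), with 6.62 ± 0.04 in the untreated twins of angiotensin II fetuses and 6.69 ± 0.23 with losartan between them. No neighbouring groups were apart by more than their spread. The angiotensin II fetuses above their twins were those of sets 7 and 8, whose arrays stood apart. Without sets 2, 7 and 8 the angiotensin II estimate for CRYAB was -0.10 (adjusted p = 0.990 in limma).

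RCAN1, the calcineurin inhibitor, had levels of 1.82, 1.89, 2.19 and 1.99 in the losartan fetuses of sets 1 to 4, against 2.24, 1.73, 2.04 and 2.16 in their untreated twins. In angiotensin II fetuses of sets 5 to 8 the levels were 2.25, 2.57, 2.08 and 1.82, against 1.80, 2.56, 2.36 and 2.21 in their untreated twins. The twins of set 6 had nearly the same level, the highest of the 16 fetuses in both, while the other ratios went either way. The fitted changes were -0.07 with losartan (SE 0.15, 95% interval -0.41 to 0.28; adjusted p = 0.894 in limma) and -0.06 with angiotensin II (SE 0.15, 95% interval -0.40 to 0.29; adjusted p = 0.882 in limma). As ratios these intervals ran over 0.751 to 1.21 and 0.758 to 1.22. The difference between the effects was 0.01, with an interval of -0.48 to 0.50, and its sign was opposite under 11 of 23 alternative settings.

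The RCAN1 means were 2.23 ± 0.32 in the untreated twins of angiotensin II fetuses, 2.18 ± 0.32 with angiotensin II, 2.04 ± 0.22 in the untreated twins of losartan fetuses and 1.98 ± 0.16 with losartan (SD, n = 4 each). Neighbours in this order differed by less than their spread. The RCAN1 estimate with angiotensin II was 0.23 without sets 2, 7 and 8 (adjusted p = 0.972 in limma). The CRYAB intervals reached a rise of 0.45 with losartan and 0.42 with angiotensin II, and those of RCAN1 a fall to -0.41 and -0.40, so estimates near 0 do not show that either gene was unchanged.

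**Figure D2:**
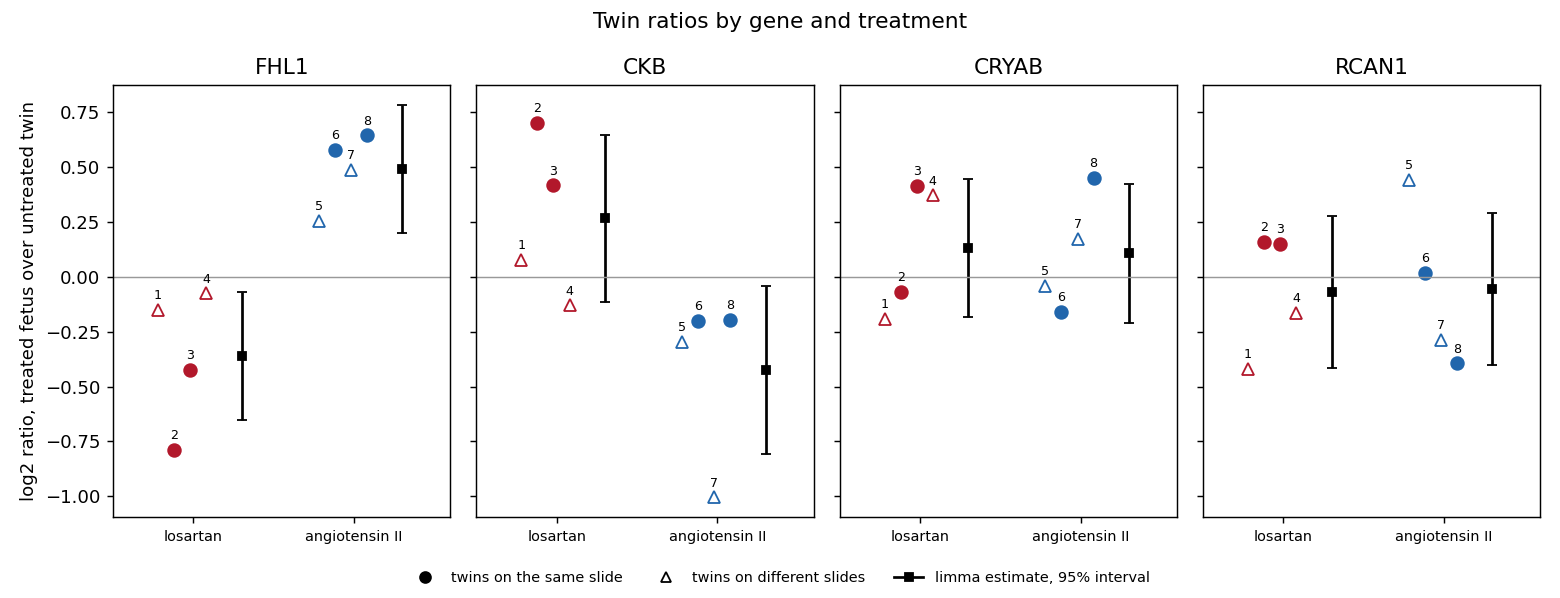
Twin ratios (log2, treated fetus over untreated twin) of each gene; filled circles are twins on the same slide, open triangles twins on different slides, numbers give the twin set, and squares with bars are limma estimates with 95% intervals. The FHL1 ratios lie at -0.79 to -0.08 with losartan and at 0.26 to 0.65 with angiotensin II, while those of CRYAB and RCAN1 lie on both sides of 0 in each arm.

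Across the 8 twin sets the ratios of FHL1 and CKB ran in opposite directions, with Pearson's r of -0.82. The other 5 pairs of members had r between -0.32 and 0.33. Without sets 2, 7 and 8 the FHL1 and CKB value was -0.83 over 5 sets, while that of FHL1 and CRYAB moved to -0.64, against 0.09 over all sets. These are descriptions of 8 points that share arrays and scaling and fall into 2 treatment arms, so no test is attached. Among losartan sets a lower FHL1 ratio went with a higher CKB ratio. The angiotensin II sets did not show this: set 8 had both the highest FHL1 ratio, 0.65, and the highest CKB ratio, -0.20. Their lowest CKB ratio, -1.01 in set 7, went with an FHL1 ratio of 0.49 that was neither the highest nor the lowest.

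**Figure D3:**
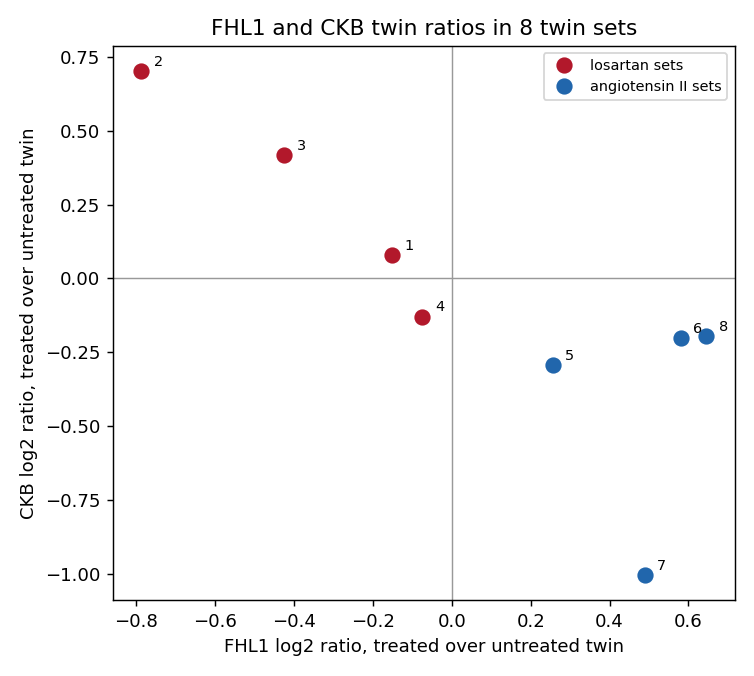
CKB twin ratio (log2, y axis) against FHL1 twin ratio (log2, x axis) in the 8 twin sets, losartan sets in red and angiotensin II sets in blue. Losartan sets 1, 2 and 3 lie at upper left, the 4 angiotensin II sets at lower right, and losartan set 4 has both ratios slightly below 0.

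Among 446 other named genes, those whose 8 twin ratios were most like those of FHL1 were CTSB, the lysosomal protease cathepsin B (r = 0.94), LOC100101238, named a regakine 1-like protein in the files (r = 0.94), and BMP6, a bone morphogenetic protein (r = 0.93). CTSB had estimates of -0.38 with losartan and 0.56 with angiotensin II, neither of which passed (adjusted p = 0.255 and 0.450 in limma). For CKB the nearest were GRPEL1, a nucleotide exchange factor of mitochondrial import (r = 0.95), TCP1, a subunit of the cytosolic chaperonin (r = 0.92), and ITGB6, an integrin chain (r = 0.87). Without sets 2, 7 and 8 these 3 CKB values were 0.79, 0.68 and 0.77, against 0.99, 0.98 and 0.87 for the 3 genes nearest to FHL1. For CRYAB they were FABP5, a fatty acid binding protein (r = 0.85), ATP5MC1, a subunit of ATP synthase (r = 0.84), and LOC100037663, described as a glutathione transferase M3 (r = 0.82). For RCAN1 they were GLP1R, the receptor of glucagon-like peptide 1 (r = 0.87), CD14, a monocyte coreceptor (r = 0.87), and ITGB5, an integrin chain (r = 0.79). None of these 12 genes passed the threshold with either treatment, and no test is attached to these values of r, the highest of 446 over 8 points.

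Few partners of the 4 genes could be measured. Of 22 LIM and Z-disc genes listed beside FHL1 none had a named probe, and none of 12 creatine and adenylate kinase genes listed beside CKB had one. Of 23 genes of the calcineurin and NFAT pathway 1 was measured: CALM2, which encodes the calmodulin that activates calcineurin. Its twin ratios were -0.12, -0.35, -0.26 and -0.17 in losartan sets 1 to 4, and 0.09, -0.02, 0.34 and 0.53 in angiotensin II sets 5 to 8. The losartan ratios were all below 0, as for 11.1% of probes, and below every angiotensin II ratio, as for 6.06% of probes. The estimates were -0.22 and 0.24 (SE 0.11 each), and the difference of 0.46 did not pass (SE 0.16; adjusted p = 0.162 in limma).

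Of 21 chaperones and CRYAB partners 3 were measured and 0 passed in any comparison. Their median change was -0.01 with losartan and -0.10 with angiotensin II, against 0.01 and -0.03 over all tested probes. HSPA5, the chaperone of the endoplasmic reticulum, had estimates of -0.02 with losartan and -0.33 with angiotensin II (SE 0.18 each; adjusted p = 0.978 and 0.497 in limma). HSP90AA1, a cytosolic chaperone, had -0.01 and -0.10 (SE 0.17 each). HSPA5 was at -0.73 and -0.66 in sets 7 and 8 and at -0.02 and 0.10 in sets 5 and 6.

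Of 14 fetal and hypertrophic markers only NPPC, C-type natriuretic peptide, had a probe under its own symbol, and it was well above background on 0 of 16 arrays. MYH7, also listed, was measured under another name. Slow myosin heavy chain, the product of MYH7, was represented by probes that the files name OMYHCS, with estimates of -0.70 with losartan and 0.61 with angiotensin II (SE 0.35 each) and a difference of 1.32 (SE 0.49; adjusted p = 0.183 in limma). Its ratios were -1.77 in set 2 and 1.45 and 1.40 in sets 7 and 8, the sets with an array that stood apart, and -0.57 to 0.01 in the other 5.

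The tissue holds several cell types, and in bulk RNA fewer cells of a type and less RNA per cell cannot be told apart. Of 8 smooth muscle markers 3 were measured, and CNN1 (calponin) and MYL9 (myosin regulatory light chain) fell with losartan, by 1.42 and 1.06 (SE 0.25 and 0.14, adjusted p = 0.0248 and 0.00850 in limma). Of all tested probes 1.22% passed with losartan. With angiotensin II the estimates of CNN1 and MYL9 were 1.09 and 0.93 and did not pass (adjusted p = 0.450 and 0.427 in limma). Their differences of 2.51 and 1.99 passed (adjusted p = 0.0087 and 0.0021 in limma), as did 1.65% of all tested probes. MYLK, the myosin light chain kinase, did not pass, with estimates of -0.36 and -0.20 (SE 0.47 each) and ratios of 1.75 in losartan set 1 and -0.90 to 0.48 in the angiotensin II sets. The mean level of the 3 markers was 1.52 to 2.15 in losartan fetuses against 2.45 to 3.32 in their untreated twins, and 3.01 to 3.77 in angiotensin II fetuses against 2.42 to 3.1 in their untreated twins. The FHL1 estimates had the signs of those of CNN1 and MYL9 in both arms, and of MYLK with losartan but not with angiotensin II; the part of these markers in the FHL1 ratios was not tested.

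Of 8 fibroblast markers 4 were tested and 0 passed, with median changes of -0.27 with losartan, 0.26 with angiotensin II and 0.62 in the difference, against 0.01, -0.03 and -0.03 over all tested probes. Their mean level was -0.61 to -0.45 in losartan fetuses against -0.45 to 0.48 in their untreated twins, and -0.67 to 0.24 in angiotensin II fetuses against -0.72 to -0.22 in their untreated twins. COL1A2, a chain of type I collagen, had estimates of -0.54 and 0.54 (SE 0.26 each) and a difference of 1.08 (SE 0.37; adjusted p = 0.164 in limma). Its ratios were -1.40 in set 2 and 1.05 and 1.17 in sets 7 and 8, and -0.57 to 0.03 in the other 5. COL1A2 was named after its values were seen. These medians had the signs of the FHL1 estimates. With losartan the estimate of each of the 4 markers was below 0. COL1A1, however, had ratios of 0.38, -1.74, 0.05 and 0.20 in losartan sets 1 to 4, so only set 2 was below 0. The untreated twin of that set was on an array that stood apart. COL3A1 was above 0 in losartan set 3, DCN in losartan set 4 and COL1A2 in no losartan set. With angiotensin II COL1A1 (0.71) and COL1A2 (0.54) were above 0, while COL3A1 (-0.02) and DCN (-0.07) were below it. The part of fibroblast markers in the FHL1 ratios was not tested.

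The mean of TPM1 and MB, both strongly expressed in cardiomyocytes, was 6.03 to 6.24 in losartan fetuses against 6.03 to 6.28 in their untreated twins, and 5.94 to 6.07 in angiotensin II fetuses against 6.01 to 6.25 in their untreated twins. Neither gene passed in any comparison. Slow myosin heavy chain, the product of the listed marker MYH7, is not in this mean. Its estimates of -0.70 with losartan and 0.61 with angiotensin II (SE 0.35 each) did not pass and had the signs of those of FHL1. By set the signs matched in sets 2, 3, 4, 7 and 8 but not in sets 1, 5 and 6. In sets 5 and 6 its ratios were -0.27 and -0.12, where those of FHL1 were 0.26 and 0.58. The angiotensin II estimate was above 0 through sets 7 and 8 (1.45 and 1.40), where the treated fetus was separated from most arrays on the first component. Of 7 neural and glial markers, listed because CKB and CRYAB are also abundant in those cells, 1 was measured: GFAP, the astrocyte filament protein, had estimates of 0.20 with losartan and -0.04 with angiotensin II (SE 0.14 each; adjusted p = 0.597 and 0.903 in limma). Of 6 endothelial and 6 leukocyte markers 2 each were tested and 0 passed. HBB, beta globin, was the 1 measured erythroid marker of 4, with estimates of 1.15 and -0.96 (SE 0.52 each; adjusted p = 0.413 and 0.498 in limma) and ratios of -1.70 to 3.30 over the 8 sets. The CKB estimates had the signs of those of HBB in both arms, but the twin ratios of CKB and HBB had opposite signs in sets 2, 4 and 7. The part of these markers in the CKB ratios was not tested.

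The FHL1 difference between the effects was positive under all 23 alternative settings, at 0.47 to 1.16, and passed the threshold under 7 of them. The CKB difference was negative under all 23, at -0.91 to -0.37, and passed under 2. Both passed when slide was added as a block (FHL1 0.97, CKB -0.91) and in the authors' deposited value table (FHL1 0.83, CKB -0.59; adjusted p = 0.0190 and 0.0473 in limma), a table in which 1734 probes passed, against 148 from the scanner files. With a single treatment neither gene passed under any of these settings. With slide as a block the losartan estimates were -0.48 for FHL1 and 0.48 for CKB, against -0.36 and 0.27 as reported. The angiotensin II estimates were the same with and without that block. Some settings could not change the estimates: no twin block, twin sets as a random block, the other probe filters and the gene mean. Under these the differences stayed at 0.85 and -0.69, so their signs there add no support.

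**Figure D4:**
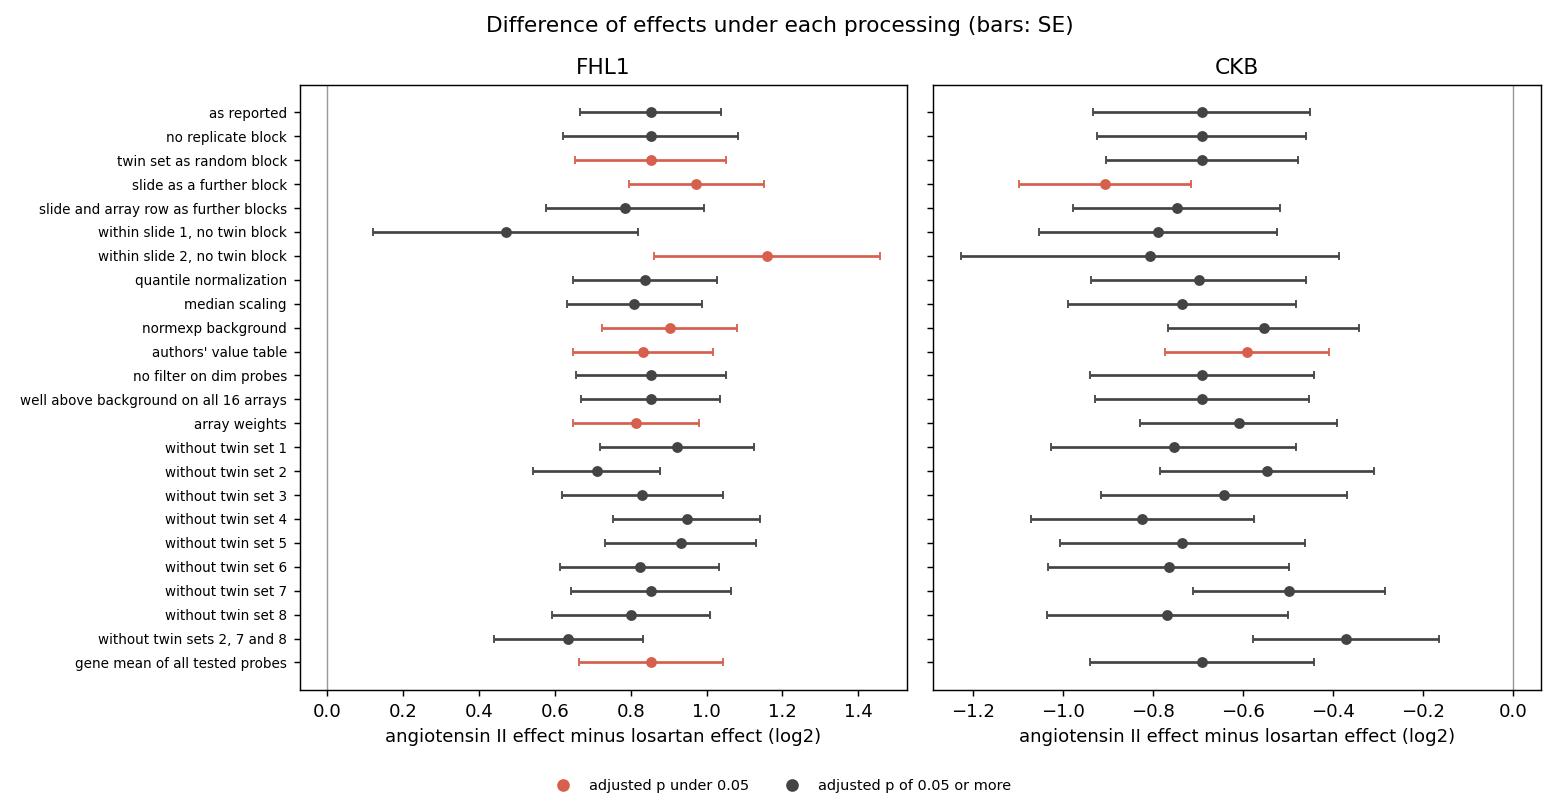
Difference between the effects (angiotensin II minus losartan, log2, x axis) of FHL1 and CKB as reported and under 23 alternative settings (y axis); bars are SE, and red marks have a limma adjusted p under 0.05. FHL1 stays above 0 (0.47 to 1.16) and CKB below 0 (-0.91 to -0.37), with 7 and 2 red marks.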

How the data were processed

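Per the file headers, the deposited spot intensity values came from Agilent Feature Extraction 10.7.3.1, which subtracted background and detrended each array without scaling one to another. The authors' value table tracked the natural log of mean signal (correlation 0.9978 to 0.9991 by array, slope 1.018 to 1.054, array medians 5.755 to 5.768). Its direction was that of the scanner values; its centring and the method that made it are not given in the sources used here, and it served only as an alternative after conversion to log2.

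Control and outlier spots were left out, spots of a probe were averaged, and log2 intensity minus the array's 75th percentile of non-control spots was used. Testing required a signal well above background throughout at least 1 of the 4 groups, which 8970 probes met. Of 15008 probes 1383 were paired with a RefSeq gene (727 by accession, 497 by symbol, 139 by gene identifier, 20 by synonym). A gene with several probes stood as its brightest tested probe. The fit used limma 3.58.1 in R 4.3.3 with 8 twin sets as fixed blocks and 1 term per treatment (6 residual degrees of freedom). Pairing came from the labels' twin sets, and the deviations of twins from their group means correlated at -0.04 to 0.53 (mean 0.24). Arrays limit precision by their number, 4 per group. Named genes were the members, up to 2 measured genes with the highest mean signal in each of the 5 pathway lists, any listed gene past the threshold, slow myosin heavy chain, and the 3 genes with the most similar twin ratios to each member; NPPC and the cell type markers that did not pass are named beside small counts. Members and lists were chosen with earlier results of these data known.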

Additional observations from a re-analysis of the deposited data

Results flagged for a closer look

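FHL1 twin ratios had opposite signs in the treatment arms, below 0 in 4 of 4 losartan sets and above 0 in 4 of 4 angiotensin II sets. The difference of 0.853 did not pass the threshold over all probes (adjusted p = 0.0571 in limma).

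Among the untreated twins of losartan fetuses, the CKB level of 0.645 in set 2 was below the other 3, at 0.838 of the group's range. That range was narrow: the other 3 lay at 0.788 to 0.815, and the group's SD of 0.078 was the smallest for CKB. The array of that twin was one of the 3 that stood apart. The CKB ratio of -1.005 in angiotensin II set 7 was far from the other 3 angiotensin II ratios, at 0.877 of their range, and that fetus's array also stood apart. In all 24 groups of 4 values were examined in this way, and chance flags about 1 in 20.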

How the results depend on the processing

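The alternatives were 23 other settings of the fit, chosen with the tests. The fit without a replicate block, in which the paired twins are not matched, gave estimates equal to those reported and no call for these genes (FHL1 difference 0.8526, adjusted p = 0.131; CKB difference -0.6914, adjusted p = 0.205, both in limma), and over all probes it left 0 calls with losartan and 3 in the difference, against 109 and 148. The FHL1 difference became significant with twin sets as a random block (0.8526) or with the gene mean of all tested probes (0.8526), with the slide as a further block (0.9734), within slide 2 (1.1591), with normexp background (0.9026), in the authors' value table (0.8329) and with array weights (0.8136), and the CKB difference with the slide as a further block (-0.9073) and in the authors' table (-0.5910). Leaving out each twin set in turn gave 0.7101 to 0.9474 for the FHL1 difference and -0.8238 to -0.4978 for that of CKB, with no call. Without sets 2, 7 and 8 they were 0.6358 and -0.3706. Within slide 2 the angiotensin II arrays and the single untreated twin of losartan fetuses were the arrays that stood apart, so treatment cannot be told apart from that separation. FHL1 and CKB had 1 probe each, so the gene mean was that probe, tested among 447 named genes instead of 8970 probes.

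Signs turned as follows, in estimates that did not pass under any setting; the cause was not tested. The FHL1 losartan estimate was 0.0131 within slide 1. For CRYAB, the losartan estimate was -0.2004 within slide 2; the angiotensin II estimate was -0.1249 with slide and array row as blocks, -0.1093 within slide 1 and -0.0998 without sets 2, 7 and 8; the difference was 0.5237 within slide 2, 0.0893 with normexp, 0.0192 in the authors' table and 0.0231 with array weights. For RCAN1 the losartan estimate was 0.1280 with the slide as a block, 0.0566 with slide and array row, 0.0450 within slide 1, 0.1711 within slide 2, 0.0472 with normexp and 0.1363 in the authors' table; the angiotensin II estimate was 0.2298 without sets 2, 7 and 8. The RCAN1 difference was -0.1836 with the slide as a block, -0.1271 with slide and array row, -0.0949 and -0.2323 within slides 1 and 2, -0.0305 with median scaling, -0.1576 with normexp and -0.2516 in the authors' table. Leaving out 1 twin set gave -0.0083 to 0.1953 for CRYAB with angiotensin II and -0.1401 to 0.0699 for its difference, and for RCAN1 -0.1446 to 0.0484 with losartan, -0.2215 to 0.0573 with angiotensin II and -0.1533 to 0.1254 for the difference.

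Counts over all probes moved by more than 1.5 times in places. With losartan 68 to 71 probes passed with twin sets as a random block or the slide as a block, 42 and 546 within slides 1 and 2, 434 in the authors' table, 57 among probes above background on all 16 arrays and 164 with array weights, and 33 to 99 without 1 twin set. With angiotensin II 353 passed within slide 2 and 1 without sets 2, 7 and 8. In the difference 427 passed with the slide as a block, 84 with slide and array row, 38 and 1880 within slides 1 and 2, 1734 in the authors' table, 98 among probes above background on all arrays, 75 without sets 2, 7 and 8, and 48 to 109 without 1 twin set.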
